A study of Mus musculus with 6 samples.

Results

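Cytosolic ribosomal proteins are the protein components of the ribosome that translates messenger RNA outside the mitochondrion. Their probes were chosen on the array by the gene name alone: Rpl (large subunit) or Rps (small subunit) followed by a number, with suffix letters allowed, or Rplp0, Rplp1, Rplp2 or Rpsa, leaving out the Rps6k kinases and relatives such as Rpl22l1 and Rpl7l1. The rule found 125 of 41174 non-control probes, each printed as 1 spot, and they carried 77 gene names: 74 probes for 47 large subunit genes and 51 probes for 30 small subunit genes. Of these names, 43 had 1 probe and 34 had several, up to 4. No probe was named Rpsa, because the array's annotation uses the older name Lamr1. By accession, 105 probes matched a RefSeq gene and 103 of them kept the array's own symbol, the other pair being Rps3a, now Rps3a1.

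RNA came from primary mouse embryonic fibroblasts, adherent cultures grown from minced embryos of embryonic day 15 by the labels, on a mixed genetic background that includes Black Swiss. The cells were wild type or homozygous for Wrn Δhel, which lacks part of the helicase domain of Wrn, the mouse homologue of the RecQ helicase altered in Werner syndrome. There were 6 two-colour arrays, each a biological replicate: 2 of H2O2-treated (Cy5) against untreated (Cy3) wild type cells, 2 of treated (Cy5) against untreated (Cy3) mutant cells, and 2 of the untreated genotypes against each other, numbered replicates 3 and 4. Treatment was 0.5 mM H2O2 for 1 hour, followed by 24 hours in fresh medium. The labels call the sample total RNA and the study's methods cytoplasmic RNA, and no dyes were swapped. In such bulk RNA, fewer cells of a type and less RNA per cell cannot be told apart.

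A ribosome holds 1 copy of nearly every one of these proteins, so their synthesis is coordinated. Ribosomal protein mRNAs are among the most abundant of a growing cell. They begin with a 5′ terminal oligopyrimidine (TOP) tract, a C followed by pyrimidines, through which the mTORC1 pathway and the RNA-binding protein Larp1 control their translation and stability. Some ribosomal proteins also act away from the ribosome: when assembly fails, Rpl5, Rpl11 and others bind Mdm2 and thereby protect p53.

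To look for letters like those of a TOP tract, the 30 bases around the annotated start (15 before and 15 from it on) were read. They came from RefSeq promoters of build GRCm38.p6, which held 57 of the 77 genes. Each line gives the sense strand 5′ to 3′, with 4 pyrimidine motifs in capitals: the motif CTTTC, the motif CTTTT, the motif CTCTT and the motif CTTCC. They were searched on both strands and can overlap each other. The first group holds genes with a probe called higher in the mutant, and the second holds genes without one that are described below for their role or their low ratio.
Rps26 (chr10:128626492-128626521, minus strand): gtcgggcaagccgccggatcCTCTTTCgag
Rps12 (chr10:23787195-23787224, minus strand): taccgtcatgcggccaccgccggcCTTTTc
Rpl35a (chr16:33056467-33056496, plus strand, 1 of 3 starts): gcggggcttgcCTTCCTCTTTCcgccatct
Rpl31 (chr1:39367836-39367865, plus strand): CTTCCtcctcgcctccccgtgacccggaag
Rpl26 (chr11:68901551-68901580, plus strand): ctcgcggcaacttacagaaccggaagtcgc
Rpl41 (chr10:128549154-128549183, minus strand): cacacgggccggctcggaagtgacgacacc
Rps28 (chr17:33824548-33824577, minus strand): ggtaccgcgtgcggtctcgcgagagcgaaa
Rplp2 (chr7:141447636-141447665, plus strand): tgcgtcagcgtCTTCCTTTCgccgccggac
Rps6 (chr4:86857353-86857382, minus strand): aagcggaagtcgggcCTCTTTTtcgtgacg
Rps27 (chr3:90213634-90213663, minus strand): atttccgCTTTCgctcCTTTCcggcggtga
Rpl15 (chr14:18270972-18271001, minus strand): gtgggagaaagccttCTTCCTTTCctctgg
Rplp0 (chr5:115559452-115559481, plus strand): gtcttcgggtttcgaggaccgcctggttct

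At least 1 of the 4 motifs stood on the sense strand of this window in 26 of the 57 genes (45.6%), against 17.7% of the 27025 genes with a RefSeq promoter. On the opposite strand the shares were 21.1% and 18.3%. Among the 11 genes of the table with a probe called higher in the mutant the sense share was 36.4%, with 4 genes, and among the other 46 it was 47.8%. A missing match says only that these letters are not in the window, since an annotated start can lie some bases from the used one. A match was counted anywhere in the window, also before the start, so it does not show that the letters are the TOP tract. The full promoters of 300 bases held CCGGAAG, the core bound by Ets factors, on either strand in 23 of 57 genes (40.4%), against 9.93% of all genes.

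The members were bright. Their median log2 intensity, the mean of both channels over the arrays, was 13.5 (range 4.37 to 15.7), against 5.64 for all genes, taking for each gene its probe of highest mean intensity. Of the 77 genes, 66 lay above a log2 intensity of 12, against 1.56% of all genes, so the 464 array genes above 12 are used below as bright genes for comparison. Brightness brought losses. The scanner software marked 199 of the 750 member spots (26.5%) as outliers, against 6.66% of all non-control spots and 29.9% of spots of probes above 12. The marked member spots numbered 53 and 45 on the wild type treatment arrays, 11 and 45 on the mutant treatment arrays, and 36 and 9 on the genotype arrays, and they were left out. On the second wild type treatment array 22.6% of all spots were marked, the most of any array.

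Saturation touched fewer members and was seen in Cy3 alone. It affected 24 spots of 11 probes for 10 genes: Rpl13, Rpl23, Rpl32, Rpl41, Rplp1, Rplp2, Rps2, Rps12, Rps23 and Rps24. None of these spots lay on the mutant treatment arrays. A saturated Cy3 reading is too low, so the Cy5 over Cy3 ratio of such a spot is an upper limit. In the wild type treatment comparison 5 probes were saturated on both arrays (Rpl13, Rpl41, Rplp1, Rps2, Rps24), and in the genotype comparison 2 were (Rpl41, Rplp1).

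**Figure D1:**
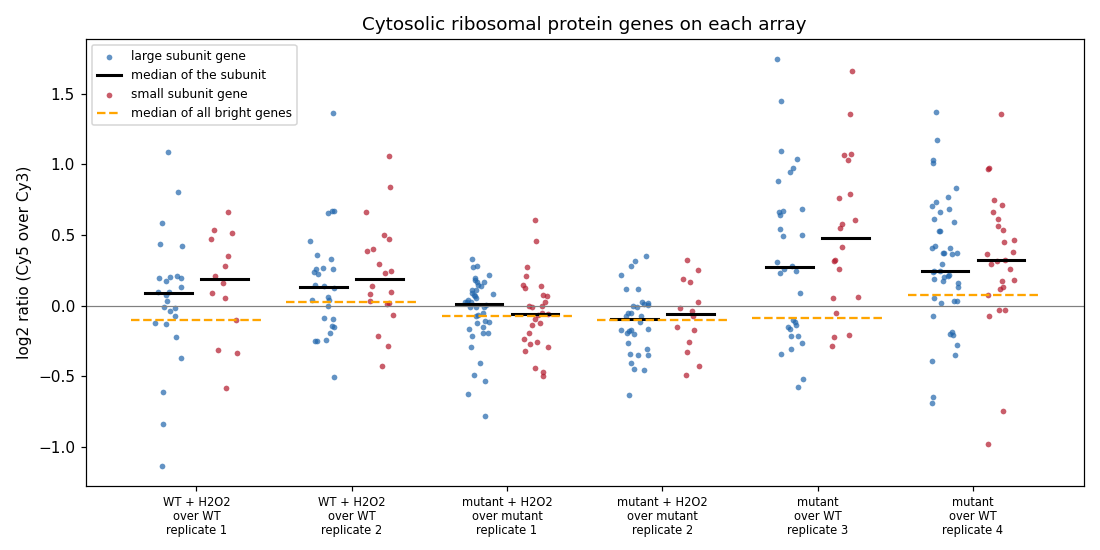
Log2 ratio of Cy5 over Cy3 (vertical axis) of each large subunit (blue) and small subunit (red) gene on each of the 6 arrays (horizontal axis), 1 probe per gene. Black bars are subunit medians and dashed lines the median of all bright genes; subunit medians lie between 0.25 and 0.48 on both mutant over wild type arrays and between -0.10 and 0.19 on the treatment arrays.

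For the untreated genotypes, the sample labels put wild type in Cy5, while the study's own table of this comparison treats Cy5 over Cy3 as mutant over wild type. The second reading was used as the likely direction. Under the labels every sign of a genotype array ratio below would turn, while values from the treatment arrays alone would stay. The treatment arrays offer a check that does not depend on this choice, since untreated RNA of both genotypes was in Cy3 there. Of the 712 probes called on the genotype arrays by the study's thresholds, 706 had the same sign as mutant minus wild type within Cy3. The Pearson correlation across these probes was 0.94. Over the 7887 probes called at an adjusted p under 0.05 the share was 89.7% (correlation 0.85), and over all 40228 probes with both values it was 65.6% (0.59). Probes are not independent replicates.

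With mutant over wild type, most ribosomal protein genes stood above 0 in untreated mutant cells. The median log2 ratio was 0.30 for the 47 large subunit genes and 0.32 for the 29 small subunit genes with a value, against 0.03 for all genes and 0.02 for bright genes. Array by array the large subunit median was 0.27 on replicate 3 and 0.25 on replicate 4, and the small subunit median 0.48 and 0.32. Both subunits thus stood above the bright genes on both arrays, whose medians were -0.09 and 0.07. Of the 48 member genes measured on both arrays, 29 were higher on both (60.4%, against 36.2% of all genes) and 3 were lower on both (6.25%, against 30.2%), namely Rpl15, Rpl9 and Rps27a. Gene by gene the arrays agreed only loosely. The Pearson correlation between them was 0.39 across member genes, against 0.55 across all genes. Their median SD between arrays was 0.26 for members and 0.31 for all genes.

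At an adjusted p under 0.05 in limma's moderated test over all probes, 23 of 124 member probes were called (18.5%, against 19.6% of all probes). Of these, 22 were higher in the mutant (17.7%, against 9.83% of all probes) and 1 was lower (0.806%, against 9.78%). The 22 comprised 13 probes of the large and 9 of the small subunit, from 15 genes, among them Rpl10a, Rpl17, Rpl22, Rpl23a, Rpl26, Rpl31, Rpl35a, Rpl39, Rpl41, Rps12, Rps21, Rps26 and Rps28. The thresholds of the study's methods (adjusted p under 0.005 and a mean log2 intensity over 6) passed 1 member probe, for Rpl22, a share of 0.806% against 1.76% of all probes in either direction and 1.18% higher. At an unadjusted p under 0.05, 41 member probes were higher (33.1%, against 18.1% of all probes) and 3 lower (2.42%, against 17.9%). When outlier spots were kept, 33 member probes were called higher and 3 lower. The call count moved with the arrays in the fit. It was 3 when the genotype arrays were fitted alone. Leaving out either mutant treatment array gave 6 calls, and leaving out either wild type treatment array gave 8. For these alternatives the share of all probes called is not given here.

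**Figure D2:**
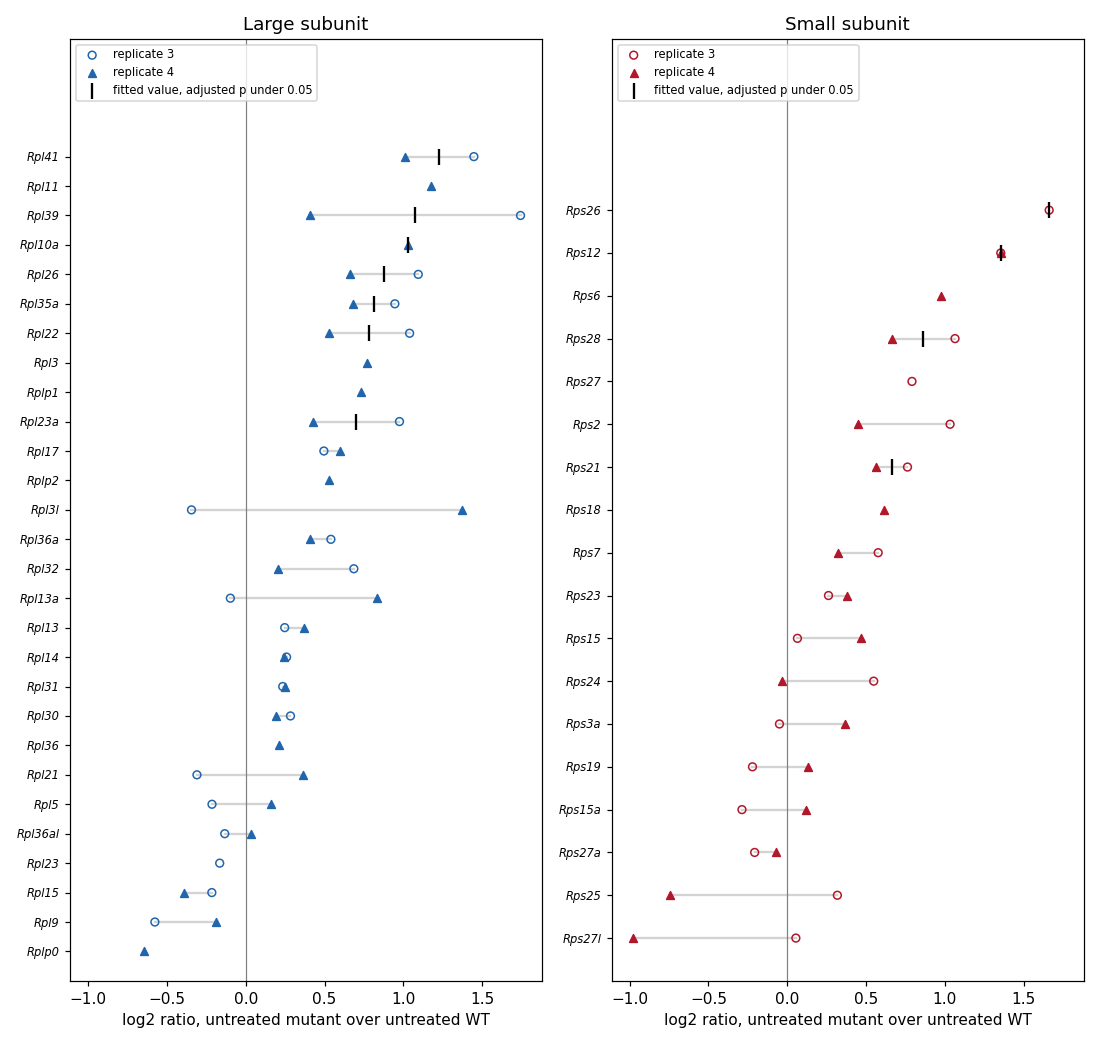
Log2 ratio of untreated mutant over untreated wild type (horizontal axis) for large subunit (left) and small subunit (right) genes named in the text, ordered by the fitted value, 1 probe per gene. Circles are replicate 3, triangles replicate 4, a grey line joins both where both were measured, and black ticks mark fitted values with an adjusted p under 0.05; every tick lies to the right of 0. The probe drawn is the brightest of its gene, so the dim Rps24 probe that was called lower is not shown.

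Rpl22, a large subunit protein that also binds other RNAs, held the largest ratio. Its probe of lower intensity (8.22) read 2.92 on replicate 3 and 2.01 on replicate 4, a log2 ratio of 2.47 ± 0.24 (SE, 2 arrays; adjusted p = 0.0033). Its brighter probe read 1.04 and 0.53, giving 0.78 ± 0.18 (adjusted p = 0.025). Both annotated to the same transcript accession, the probes agreed in sign and differed by 1.68 in size.

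Rps12 and Rps26, proteins of the small subunit head and of its mRNA exit site, followed. Rps12, with a CTTTT match in the window above, had 1.35 and 1.36 on the genotype arrays, a ratio of 1.36 (adjusted p = 0.0097). Its Cy3 spot was saturated on replicate 3 and not on replicate 4. Rps26 was measured on replicate 3 alone, at 1.66 (adjusted p = 0.014). So Rps26 rests on 1 array, and the unsaturated Rps12 value on 1 array too.

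Rpl41, the shortest ribosomal protein, had 1.45 and 1.01, fitted at 1.23 ± 0.19 (adjusted p = 0.011). Its Cy3 spot was saturated on both arrays, so that ratio is an upper limit. Rpl39, a small protein lining the exit tunnel, differed widely between arrays at 1.74 and 0.41 (fitted 1.08, adjusted p = 0.045).

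Several genes were called on more than 1 probe. All 3 probes of Rps28 were called, with ratios of 0.84, 0.86 and 1.08. Both probes of Rpl35a, a large subunit protein mutated in some patients with Diamond-Blackfan anaemia, were called: one read 0.93 and 0.81 (0.87, adjusted p = 0.011) and the other 0.95 and 0.68 (0.82, adjusted p = 0.025). Rpl23a, at the mouth of the exit tunnel, was called on both probes (0.76 and 0.70), as was Rps21 on 2 of 3 (0.71 and 0.66). For each of these 4 genes every probe was above 0. In the 11 alternative analyses for which single calls were followed, 2 of the 23 calls held in every one, the dimmer probe of Rpl22 and 1 probe of Rpl35a.

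Other genes had 1 called probe each. Rpl26, which also binds the p53 mRNA, read 1.09 and 0.66 (0.88, adjusted p = 0.017). Rpl10a was measured on replicate 4 alone, at 1.03 (adjusted p = 0.046). At the lower end of the called values, Rpl17 read 0.73 and 0.54 (0.64) and Rpl31 0.65 and 0.44 (0.55).

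The 1 probe called lower was for Rps24, a small subunit protein, and was annotated to a cDNA clone accession. It was dim (4.86) and read -1.51 and -1.58. The mutant channel was not well above background on either array (adjusted p of the ratio = 0.0072). With that channel raised to at least the dimmest Cy5 value well above background on the array, the mutant level was 2.44-fold lower. That floor is not specific to this spot, so 2.44 is a rough limit. The bright Rps24 probe (14.4) read 0.55 and -0.03, fitted at 0.26 ± 0.19 (adjusted p = 0.36). The third probe, also dim and annotated to another cDNA clone, read -0.28 and -0.40 (adjusted p = 0.20). Probes of 1 gene had the same sign in 26 of the 34 genes with several, and Rps24 and Rpl22 were furthest apart. Processed pseudogenes and near-identical copies of ribosomal protein genes are many, and a 60-mer probe could bind them too, so values of single probes are uncertain to that extent.

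The stalk proteins, which recruit elongation factors, were poorly measured. Rplp0 (-0.65), Rplp1 (0.73, Cy3 saturated) and the bright probe of Rplp2 (0.53) had values on replicate 4 only, and none was called. The dim Rplp2 probe read 0.07 and -0.18. The laminin receptor gene Rpsa, under its name Lamr1, had -0.47 on replicate 4 for its bright probe, and 0.26 and -0.21 for its dim one.

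Rpl11, Rpl5, Rpl23 and Rps7, chosen as proteins known to bind Mdm2, had no called probe. Rpl11 had 1.17 on replicate 4 alone for its bright probe (adjusted p = 0.059) and -0.00 and 1.73 for its dim one. Rpl5 had -0.21 and 0.16 for its bright probe, and -0.25 and -1.19 for its dim one. Rpl23 was measured on replicate 3 alone, at -0.17 for its bright probe, an upper limit since Cy3 was saturated there, and at 0.91 for the other. Rps7, read at 0.58 and 0.32, was fitted at 0.45 ± 0.18 (adjusted p = 0.15). These 4 genes thus spanned values on both sides of 0. At the low end of the large subunit genes measured on both arrays, Rpl15 read -0.22 and -0.39 and Rpl9 -0.58 and -0.19, neither called. Rpl4 (-0.69) and Rplp0 (-0.65) stood lower on replicate 4 alone. All 4 probes of Rpl29 were below 0, fitted between -0.41 and -0.28, and none was called.

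Rps6, the substrate of the S6 kinases downstream of mTORC1, had 0.97 on replicate 4 alone for its bright probe (adjusted p = 0.088). The ubiquitin fusion gene Rps27a read -0.21 and -0.07. Fau, a ubiquitin-like fusion gene that lies outside the naming rule, read 0.03 and 0.30. No probe of these genes was called.

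Paralogues did not always stand together. Rps27 had 0.79 on replicate 3 alone (adjusted p = 0.088), while Rps27l, its p53-responsive relative, read 0.05 and -0.98 (fitted -0.46 ± 0.25, adjusted p = 0.24). The brightest probe of Rpl36a read 0.54 and 0.41 (0.47, adjusted p = 0.067) and Rpl36al -0.13 and 0.04. Rpl3 had 0.77 on replicate 4, and its muscle relative Rpl3l was dim (4.37) with its Cy5 channel not well above background. None of these differences was tested. Of the genes often used as references, Rpl13a read -0.10 and 0.83 and the brightest Rps18 probe 0.61 on replicate 4 alone, neither called.

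Within Cy3 of the treatment arrays the same genotypes were compared through other hybridisations and a single dye. The median of mutant minus wild type was 0.18 for 30 large subunit genes and 0.28 for 20 small subunit genes, against -0.08 for all genes and -0.17 for bright genes. Of these 50 genes 28 were above 0 (56%, against 44.6% of all genes), 16 of the large and 12 of the small subunit. Of the 22 probes called higher on the genotype arrays, 21 had a value there and 19 of them were above 0. With both directions taken, 90.9% of the called member probes had the same sign within Cy3, near the 89.7% of all called probes. The median of the member probes called higher was 0.33 within Cy3 and 0.82 on the genotype arrays. Rpl22 had 1.65 and 0.39 for its probes, Rps26 0.90, Rpl35a 0.29 and 0.70, and Rpl10a 1.01. The called Rpl17 and Rpl31 probes were at -0.08 and -0.05. Untreated mutant RNA itself read in Cy5 of the genotype arrays minus Cy3 of the treatment arrays gave a median of 0.02 over 70 member genes and -0.07 over all genes. Between treated cells, within Cy5, the median of mutant minus wild type was -0.06 for large and 0.08 for small subunit genes, against -0.17 for bright genes.

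**Figure D3:**
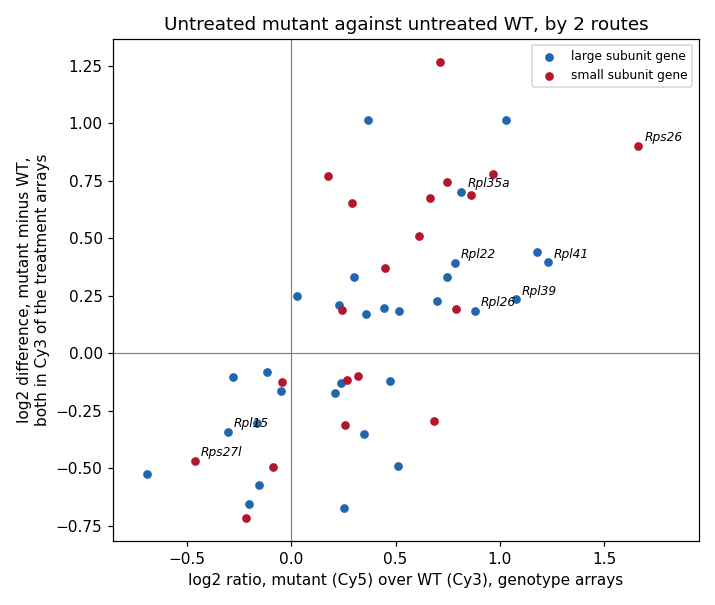
Untreated mutant against untreated wild type for 50 ribosomal protein genes with both values: log2 ratio of Cy5 over Cy3 on the genotype arrays (horizontal axis) and log2 difference within Cy3 of the treatment arrays (vertical axis). Blue is large and red small subunit. On both axes 40 of the 50 genes have the same sign (80%, against 65.6% of all probes).

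In wild type cells, H2O2 moved no member past the threshold. Of 88 member probes with a value 0 were called, against 0.119% of all probes called higher and 0.139% called lower, and the smallest adjusted p of a member was 0.055. At an unadjusted p under 0.05, 10 were higher (11.4%, against 9.98% of all probes) and 6 lower (6.82%, against 10%). The median log2 ratio of treated over untreated was 0.08 for 31 large subunit genes and 0.24 for 21 small subunit genes, against 0.00 for all genes and -0.07 for bright genes. Of 36 genes measured on both arrays, 23 were higher on both (63.9%, against 41.4% of all genes) and 8 lower on both (22.2%, against 33.6%).

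The 3 highest of these genes were each saturated in Cy3. Rpl41 read 1.09 and 1.37 (fitted 1.23 ± 0.19, adjusted p = 0.055), and bright Rps24 read 0.66 and 0.84 (0.75, adjusted p = 0.093), with both arrays saturated for each gene, so these are upper limits. Rps23, a protein of the decoding centre, read 0.53 on replicate 1 and 1.06 on replicate 2, where it was saturated. Without saturated spots the small subunit median was 0.16.

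At the low end of the genes measured on both arrays were Rpl36, at -0.61 and -0.51 (fitted -0.56 ± 0.16, adjusted p = 0.13), Rps19 at -0.33 and -0.42, and Rpl14 at -0.37 and -0.25. Lower values came from genes measured on replicate 1 alone: Rpl4 at -1.13, Rpl21 at -0.84 and Rps15 at -0.58. The second Rpl36 probe read -0.55 and -0.45, close to the first. The dim probe of Rpl5, the Mdm2-binding partner of the 5S rRNA, read -0.79 and -0.64 (adjusted p = 0.16). Both Rpl36 probes and the Rpl5 probe were thus below 0 on every wild type array.

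Of the members, 37 probes had both wild type spots marked as outliers and gave no value, among them those of Rplp0, Rplp1, Rps12, Rps27a and Rpl3. The 2 wild type arrays agreed closely where both were measured, with a median SD between arrays of 0.08 over the member genes, against 0.13 over all genes. In a fit of these 2 arrays alone 19 member probes were called, and 17 were when either genotype array was left out. The share of all probes called in these fits is not given here, so the counts do not set members apart from other probes.

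In mutant cells the members stayed closer to 0. The median was -0.03 for 43 large and -0.06 for 28 small subunit genes, against 0.01 for all genes and -0.09 for bright genes. Of 45 genes on both arrays, 12 were higher on both (26.7%, against 35.7% of all genes) and 21 were lower on both (46.7%, against 33%). Among bright genes 35.5% were higher on both and 48.2% lower on both, so the lower share was not particular to the members. None of 116 probes was called, as was none of all probes (0%), with 1 higher and 4 lower at an unadjusted p under 0.05 (0.862% and 3.45%, against 5.81% and 6.21% of all probes).

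The lowest genes measured on both arrays were Rpl21 at -0.78 and -0.41, Rps15 at -0.50 and -0.49, and Rpl36 at -0.53 and -0.45, where the smallest adjusted p among members was 0.34 (Rpl36). Rpl18 read -0.62 on replicate 1 alone. The highest were Rps25, a protein used by viral internal ribosome entry sites, at 0.61 and 0.33, Rps27l at 0.46 and 0.25, and Rpl30 at 0.33 and 0.28. Rpl36 was lower on all 4 treatment arrays, and Rps25 and Rps27l were higher on all 4. This was not particular to them. Rps19 and the brighter Rpl22 probe were also lower on all 4, and the bright probes of Rpl23, Rpl39, Rps20 and Rps23 were among those also higher. Rplp0, which had no wild type value, read -0.49 and -0.45.

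**Figure D4:**
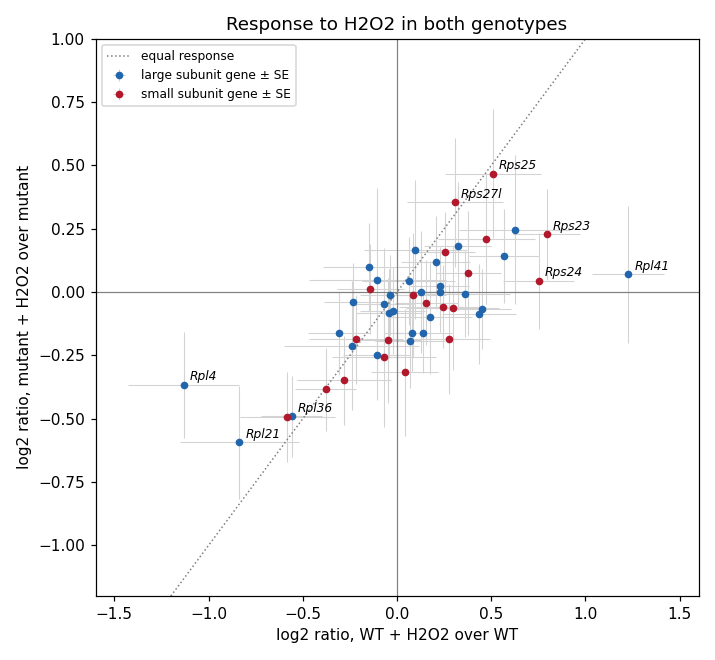
Fitted log2 ratio of H2O2-treated over untreated cells in wild type (horizontal axis) and mutant (vertical axis) for the ribosomal protein genes with a value in both, with SE bars; the dotted line marks equal responses. Rpl41 (1.23 and 0.07), Rps23 and Rps24 lie furthest to the right; none of the differences passed the test.

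Taken as the mutant response minus the wild type response, the median was -0.11 for 30 large and -0.17 for 20 small subunit genes, against -0.00 for all genes and -0.07 for bright genes. None of 85 probes was called, nor was any probe of the array (0%). At an unadjusted p under 0.05, 2 member probes were lower (2.35%, against 2.67% of all probes) and 0 higher (against 3.27%). Of 28 genes on all 4 arrays, 16 had both mutant values below both wild type values (57.1%, against 26.4% of all genes and 48.6% of bright genes). The reverse held for 1 gene, Rpl31 (3.57%, against 20.9% of all genes).

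Single genes show how wide these differences were. Rpl41 differed by -1.16, with a 95% interval of -1.96 to -0.35 (adjusted p = 0.74), on 1 mutant array and 2 saturated wild type arrays. Rps24 differed by -0.71 (-1.34 to -0.08), also against saturated wild type spots, and Rps23 by -0.57 (-1.16 to 0.03). Rpl32 differed by -0.52 (-1.19 to 0.14). For Rps23 and Rpl32 the wild type spot of replicate 2 was saturated. At the other end, Rpl4 differed by 0.77 (-0.17 to 1.70) on 3 arrays, and among genes on all 4 arrays Rpl31 differed by 0.20 (-0.32 to 0.71), followed by the dim probes of Rpl3l (0.15) and Rps15a (0.15).

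Ribosome biogenesis genes lay on the other side of 0 in the untreated mutant. Of 97 ribosome biogenesis genes, nucleolar factors and RNA polymerase I subunits that make and assemble rRNA, 48 were found on the array under a listed name. Their median was -0.36 on replicate 3 and -0.24 on replicate 4, with 8 called lower (16.7%, against 8.47% of all genes) and 2 higher (4.17%, against 10.7%). Lower genes included Tbl3 (-2.20 and -1.03) and Mphosph10 (-2.21 and -0.96), both of the small subunit processome, the nucleolar phosphoprotein gene Nolc1 (-1.82 and -1.04), Ddx56 (-2.11 and -0.65), and Nol5a, the box C/D protein Nop56 (-1.57 and -0.69). The higher ones were Rpo1-1, a polymerase I subunit, at 0.78 and 1.07, and Nol6 at 1.14 and 0.60. All 5 named lower genes were further from 0 on replicate 3.

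Translation factors and other TOP mRNAs (36 of 39 found) had a median of 0.01, with 8.57% of those with a value called higher and 17.1% lower, against the same 10.7% and 8.47% of all genes. Called higher were the elongation factor Eef1a1 (1.47 and 0.91), Naca (1.04 and 0.68) and Tpt1 (0.92 and 0.50), all with classical TOP tracts. The 6 called lower were initiation factors: Eif3s8 (-1.84 and -1.21), Eif4g2 (-1.17 and -1.39), Eif4g1, Eif5b, Eif3s4 and Eif2s3x.

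Among genes that control ribosome synthesis through mTORC1 and Myc (32 of 36 found; median 0.01), 7 were called higher (21.9%, against 10.7% of all genes) and 2 lower (6.25%, against 8.47%). Ddit4, an inhibitor of mTORC1, read 2.44 and 2.33. Sesn1, another inhibitor, read 1.33 and 1.31, and Gbl, the mTOR partner now called Mlst8, 1.42 and 1.13. Myc itself read -1.06 and -0.84 and Mxi1 -0.80 and -0.56.

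Mitochondrial ribosomal proteins (73 genes) had a genotype median of 0.09, with 7 called higher (9.59%) and 5 lower (6.85%), both under the shares of all genes, 10.7% and 8.47%. In wild type cells treated with H2O2 they stood at 0.22, and the difference between responses had a median of -0.25.

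**Figure D5:**
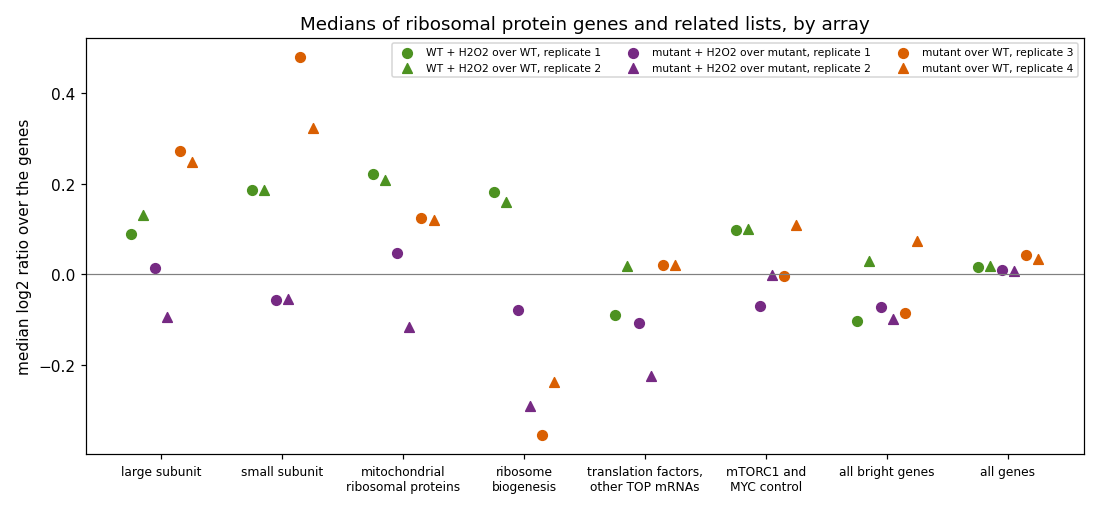
Median log2 ratio (vertical axis) over the genes of each list (horizontal axis) on each array; circles and triangles are the replicates of a comparison and colours the comparisons. On both mutant over wild type arrays the ribosomal protein subunits lie above 0 and the ribosome biogenesis genes below it.

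Markers of the cell type moved with genotype as well. All 10 fibroblast markers were well above background on every array. Of the 9 with a genotype value 5 were called higher: Dcn, Pdgfra, Col3a1, Pdgfrb and Col1a1 (55.6%, against 10.7% of all genes). Fbln2 was called lower (11.1%, against 8.47%), and the median over the 9 was 1.01. Pdgfra and Col3a1 were measured on replicate 3 alone and Col1a1 on replicate 4 alone. After treatment the median of the fibroblast markers was -1.04 in wild type cells (7 markers) and -0.15 in mutant cells (9 markers), with none called. The wild type arrays differed, at -1.06 on replicate 1 (6 markers) and -0.12 on replicate 2 (3 markers), with 2 markers measured on both. The mutant arrays read -0.14 and -0.16, so the lower wild type median came mainly from replicate 1. None of 8 macrophage, 5 endothelial or 5 skeletal muscle markers was called, 1 of 5 epithelial markers was lower, and of 4 erythroid markers 1 was higher and 1 lower. No endothelial marker was well above background on every array, and 3 of 8 macrophage markers were. The part of culture composition in the ribosomal protein values was not tested.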

How the data were processed

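Each of the 6 Agilent whole mouse genome arrays came as the scanner output of Feature Extraction 7.5.1 (per the file headers), in which the authors deposited foreground and background intensities of both channels and a log10 ratio per spot. A series table of log2 ratios was also deposited by the authors, who subtracted background and applied loess in limma; it matched the scanner values with outlier spots kept (Pearson r at least 0.999). Local background was subtracted here, control spots and Feature Extraction outlier spots were left out (saturated spots were kept), ratios were loess normalized within arrays, and 1 coefficient per comparison was fitted over all 6 arrays in limma 3.58.1 (R 4.3.3) with Benjamini-Hochberg adjustment over all non-control probes. Adjusted p-values are from that fit; with 1 value in a comparison, the spread came from the other arrays. Differences within a dye used Aquantile values. Precision is limited by 2 arrays per comparison. Named genes were members called (the 5 highest and 5 lowest where over 10), the 3 highest and 3 lowest genes per comparison with a value on both arrays, genes fixed by role, and called genes of the other lists, up to 5 a direction; further called members were named after their values were seen. Members and lists were chosen with earlier results of these data known. Results of some genes are not reported here. The script was checked on simulated data. Alternatives were outlier spots kept, normexp, median centring, Feature Extraction ratios, the series table, single-comparison fits, dim or saturated spots left out, probes averaged, each array left out and a replicate block.

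The ratios showed no pairing of the treatment arrays by replicate number: the deviations of replicates 2 and 1 correlated at -0.05 between genotypes over 29913 probes. An effect shared by both channels of an array cancels from its ratio, so this value cannot decide whether the cultures were paired.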

Additional observations from a re-analysis of the deposited data

How the results depend on the processing

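With 2 arrays per comparison, call counts moved with the setting and the arrays in the fit, while the genotype medians stayed above 0 in every alternative run. The counts are of member probes, and the share of all probes called in each alternative is not given. With outlier spots kept, calls numbered 36 for genotype (3 by the study's thresholds) and 1 for wild type treatment, the genotype small subunit median was 0.39, and the large subunit medians were 0.20 in treated wild type and -0.24 for the response difference. The authors' series table gave 36, 3, 2, 0.39, 0.20 and -0.24 for the same 6 values. With normexp, calls were 47 for genotype (0 by the study's thresholds) and 8 for wild type treatment, and large and small subunit medians were 0.43 and 0.59 for genotype, 0.23 and 0.39 for treated wild type, and 0.13 and 0.058 for treated mutant, whose sign turned. Feature Extraction ratios gave 9 genotype calls (0 by the study's thresholds) and treated mutant medians of 0.034 and 0.017. Median centring shifted bright genes as a whole (medians of 0.73 for genotype, 0.52 for treated wild type, 1.07 for treated mutant and 0.52 for the response difference): the subunit medians became 1.01 and 1.11 for genotype, 0.67 and 0.79 for treated wild type, 0.97 and 1.20 for treated mutant, and 0.31 and 0.44 for the response difference, which turned its sign but stayed below the bright genes, and calls were 35 for genotype and 3 for treated mutant. The cause of these shifts was not tested. Fitting each comparison's own arrays alone gave 3 genotype calls (0 by the study's thresholds), 19 (2) in wild type and 3 in the mutant. Without dim probes genotype calls were 34 of 115 member probes (33 higher and 1 lower), the wild type count was 2 and the genotype small subunit median 0.39. The treated wild type small subunit median was 0.16 without saturated spots and 0.14 with probes averaged. Within Cy3 the genotype large subunit median was 0.18.

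Leaving out each array in turn, genotype calls ranged from 6 to 39 and from 0 to 18 by the study's thresholds, treated wild type calls from 0 to 17 and from 0 to 1, and treated mutant calls from 0 to 4. The medians ranged from 0.25 to 0.30 and 0.32 to 0.48 for genotype, 0.078 to 0.13 and 0.19 to 0.24 for treated wild type, -0.095 to 0.013 and -0.06 to -0.06 for treated mutant, and -0.20 to -0.10 and -0.19 to -0.12 for the response difference (large, then small subunit). With a replicate block over the treatment arrays, whose pairing the ratios did not show, 5 genotype probes were called, 0 by the study's thresholds. A scan batch block was not run, since each array was on a slide of its own. The images of the 4 treatment arrays were extracted on 1 day and each genotype array on another, so extraction day and comparison cannot be told apart.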
